A study of Mus musculus with 8 samples.

Results

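Protein phosphatase subunit genes of mouse testis are described here in XEOSry males, which lack Zfy, and in XEZ2OSry males, in which Zfy2 was restored. They were taken as every gene on the array whose symbol begins with Ppp1 to Ppp6 or with Ppm1. This gave 61 genes of the 18097 in the table, of which 42 were detected (detection p-value under 0.01 on at least 4 of the 8 arrays) among 8324 detected genes in all. By role, 11 were catalytic subunits of the PPP family (10 detected), 12 were PPM phosphatases (8 detected) and 38 were regulatory subunits (24 detected). The rule used only gene names and detection, not the difference between the genotypes.

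Both genotypes were male mice on the MF1 background with an XO karyotype, 17.5 days post partum, and both carried the Sry and Eif2s3y transgenes in the absence of any other Y gene. XEZ2OSry males carried an X-linked Zfy2 transgene in addition, whose promoter is not given in the sources used here, and 4 animals of each genotype were compared, with 1 Illumina BeadChip array of whole testis RNA per animal. Zfy2 itself was not detected on any array (lowest detection p-value 0.539, log2 signal 6.05 to 6.20 in XEOSry and 6.15 to 6.19 in XEZ2OSry), so that the array did not check the genotypes. The label identifiers of all 4 XEOSry animals begin with the same number, and no XEZ2OSry identifier begins with it. What this number stands for is not given, and any effect of it cannot be told apart from genotype. Identifiers of XEOSry replicates 3 and 4 differ only in their last letter, and whether animals of 1 genotype were littermates is not given.

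Phosphatases of the PPP family remove phosphate from serine and threonine, and a small set of catalytic subunits gains its substrates from a large set of regulatory subunits. PP1 and PP2A are the main ones, calcineurin is the form switched on by calcium and calmodulin, and the PPM enzymes work without regulatory subunits. In the testis several subunits have germ cell forms. A splice form of Ppp1cc is required for sperm production in the mouse, and Ppp3cc with Ppp3r2 makes up the calcineurin of sperm.

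Each array reads a gene as bead fluorescence, and all levels below are normalized log2 signals, in which a difference of 1 is a doubling. Differences are XEOSry minus XEZ2OSry, tested by limma with Benjamini-Hochberg adjustment over the 8324 genes and a threshold of 0.05. Detected genes numbered 8132 to 8434 per array in XEOSry and 8063 to 8282 in XEZ2OSry. Over the 8324 genes kept, 0.024% passed the threshold as higher (2 genes) and 0.036% as lower (3 genes), together 0.0601%. A positive difference was found in 62% of them, and the median difference was 0.073.

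No phosphatase gene passed the threshold in either direction. At an unadjusted p under 0.05, 9 of the 42 detected members were higher in XEOSry (21.4%, against 12.9% of all detected genes) and 5 were lower (11.9%, against 12%). The genotypes did not overlap for 3 members that were higher, against 6.34% of all genes, and for 2 that were lower, against 4.58% (5 of 42 in all, 11.9%, against 10.9%). A single member, Ppp1r11, was over 1.5-fold lower (2.38%, against 6.63% of all genes), and none was over 1.5-fold higher, against 0.973% (7.6% of all genes in either direction). Among the 42, 25 had a positive difference (59.5%) and 17 a negative one (40.5%, against 38% of all genes), and the median was 0.076.

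Isoforms of the same enzyme lay on both sides. Ppp1ca, the alpha catalytic subunit of PP1, was at the higher levels in XEOSry while Ppp1cc, the gamma subunit, was at the lower ones. The calcineurin catalytic subunit Ppp3cb and the calcium-binding subunit Ppp3r1 were higher in XEOSry while Ppp3ca was lower. All 5 had an unadjusted p under 0.05 and none passed after adjustment.

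**Figure D1:**
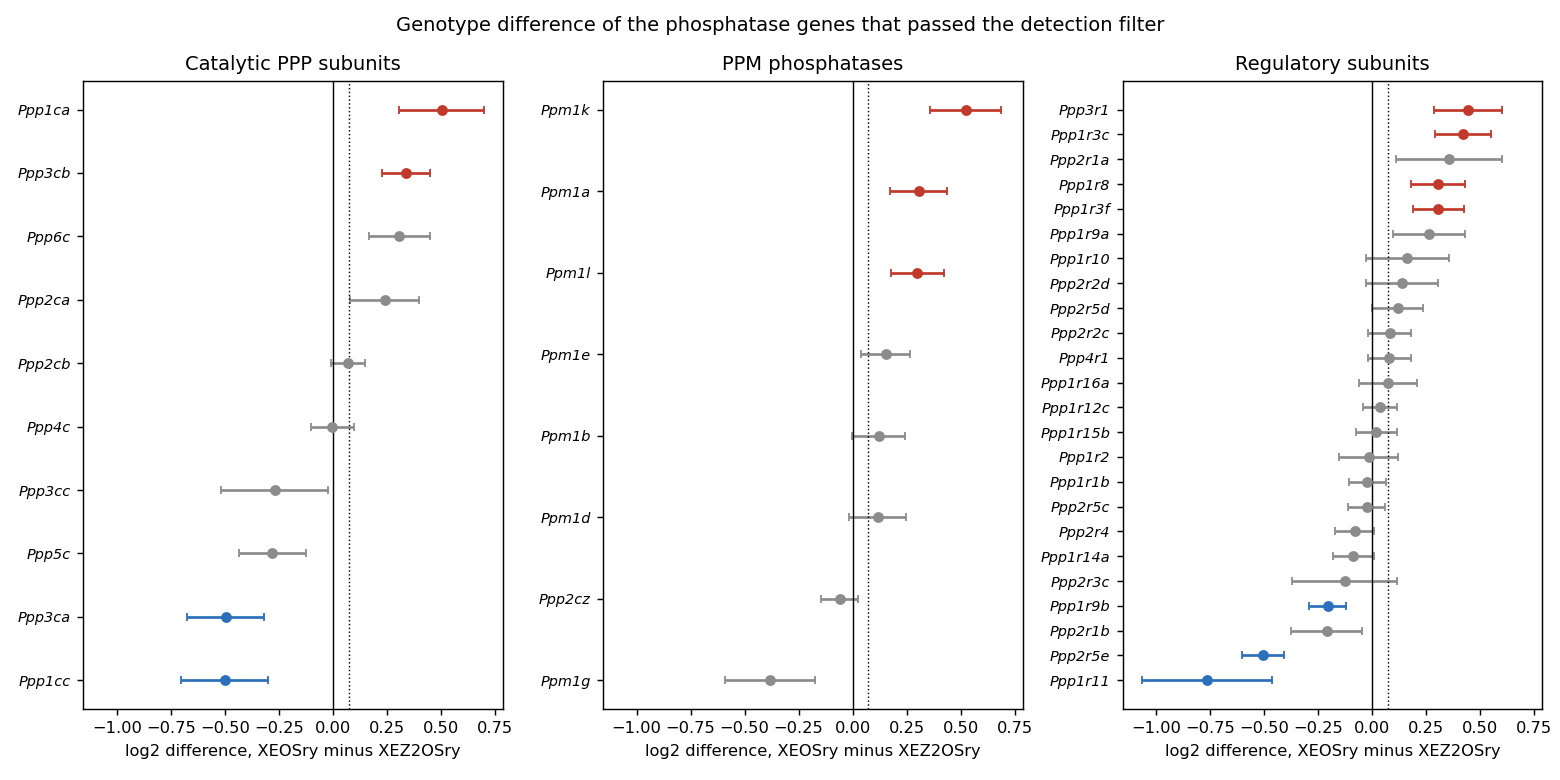
Log2 difference of each detected phosphatase gene (XEOSry minus XEZ2OSry, point) with its standard error (bar), by class, 4 animals per genotype. Red and blue mark an unadjusted p under 0.05 (9 higher, 5 lower), grey marks the rest, and the dotted line is the median of all 8324 detected genes at 0.073. Catalytic subunits lie on both sides of 0, from -0.50 to 0.50.

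Promoters are shown for subunits of PP1 and calcineurin on either side of 0 and for Ppm1a and Ppp2ca, which hold a cyclic AMP response element, the site of CREB and of the germ cell factor CREM. Sequences are from RefSeq (GRCm38.p6), which held a promoter for 32 of the 42 detected members, and each runs 5′ to 3′ over the 250 bases before a RefSeq transcript start, which for Ppp1cc lies within the annotated gene and for the others at the first base of the gene. Capitals mark the cyclic AMP response element (TGACGTCA) or its short form (TGACG), searched on both strands. Ppp1ca, Ppp3ca, Ppp3cc and Ppp2r5e are named only.
Ppp1cc (chr5:122158025-122158274, plus strand): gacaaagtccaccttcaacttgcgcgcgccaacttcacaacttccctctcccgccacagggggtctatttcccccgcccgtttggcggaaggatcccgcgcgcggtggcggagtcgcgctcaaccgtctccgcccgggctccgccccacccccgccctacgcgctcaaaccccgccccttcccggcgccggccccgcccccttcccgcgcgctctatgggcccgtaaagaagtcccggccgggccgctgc
Ppp1r11 (chr17:36951793-36952042, minus strand): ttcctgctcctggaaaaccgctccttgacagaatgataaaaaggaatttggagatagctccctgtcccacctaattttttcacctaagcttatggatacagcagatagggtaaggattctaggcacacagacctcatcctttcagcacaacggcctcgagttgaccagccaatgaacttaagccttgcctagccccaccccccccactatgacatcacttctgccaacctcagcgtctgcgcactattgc
Ppp3cb (chr14:20546574-20546823, minus strand): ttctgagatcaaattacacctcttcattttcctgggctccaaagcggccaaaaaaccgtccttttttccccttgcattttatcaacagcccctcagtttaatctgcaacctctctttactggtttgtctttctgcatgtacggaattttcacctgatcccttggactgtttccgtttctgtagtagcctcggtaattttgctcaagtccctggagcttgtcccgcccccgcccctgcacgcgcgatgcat
Ppp3r1 (chr11:17159048-17159297, plus strand): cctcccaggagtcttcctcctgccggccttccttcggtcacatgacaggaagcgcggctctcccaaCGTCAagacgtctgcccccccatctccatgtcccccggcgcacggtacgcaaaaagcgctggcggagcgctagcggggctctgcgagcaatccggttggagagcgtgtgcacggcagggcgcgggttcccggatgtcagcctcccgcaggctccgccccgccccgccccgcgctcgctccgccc
Ppm1a (chr12:72760961-72761210, plus strand): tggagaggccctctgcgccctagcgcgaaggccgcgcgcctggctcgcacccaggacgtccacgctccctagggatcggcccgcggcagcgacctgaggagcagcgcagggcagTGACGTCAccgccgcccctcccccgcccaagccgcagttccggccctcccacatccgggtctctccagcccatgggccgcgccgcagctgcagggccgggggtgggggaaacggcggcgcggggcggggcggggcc
Ppp2ca (chr11:52098574-52098823, plus strand): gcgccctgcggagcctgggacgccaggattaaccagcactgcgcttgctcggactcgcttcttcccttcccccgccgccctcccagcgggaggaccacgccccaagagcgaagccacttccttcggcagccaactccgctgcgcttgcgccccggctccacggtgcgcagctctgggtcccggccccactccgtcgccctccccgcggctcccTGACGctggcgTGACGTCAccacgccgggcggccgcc

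The full element began 136 bases before the start of Ppm1a and 26 bases before that of Ppp2ca, where a separate TGACG began 37 bases before it. Ppp3r1 held its complement, CGTCA, 184 bases before its start. Windows of Ppp1cc, Ppp1r11 and Ppp3cb held neither, which says only that these letters are not in these 250 bases. In the first promoter listed for each gene, 5 of 32 members held the full element (15.6%: Ppm1a, Ppm1d, Ppp1r12c, Ppp2ca and Ppp2r2d), against 1.62% of 27025 genes and 2.75% of 6404 detected genes. All 5 had a positive difference, from 0.036 in Ppp1r12c to 0.31 in Ppm1a, against 62% of all detected genes. None of the 5 passed after adjustment. Differences of Ppp1r12c, Ppm1d and Ppp2r2d were smaller than their standard errors, and that of Ppp1r12c lay under the median of 0.073 over all detected genes. Whether the element goes with the direction of the difference was not tested. The short form TGACG, which every full element contains, was in 11 of 32 first promoters (34.4%), against 27.8% of detected genes. Matches to TAACNG, a MYB motif, and to GTTGCC, an RFX motif, were found in 4 first promoters each (12.5%), against 17% and 10.8% of detected genes. Of the further promoters listed, those of Ppm1b alone added a member to the counts of the short form, the MYB motif and the RFX motif.

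Of the PP1 catalytic subunits, Ppp1ca (chromosome 19) had log2 signals of 11.21, 11.44, 11.65 and 11.27 in XEOSry and of 10.73, 10.42, 11.04 and 11.37 in XEZ2OSry. The XEOSry animals sat in the upper range, and XEZ2OSry replicate 4 was the single XEZ2OSry animal among them. The means were 11.39 ± 0.197 and 10.89 ± 0.405 (SD, n = 4 each), a difference of 0.50 (SE 0.196, limma adjusted p = 0.166).

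Ppp1cc (chromosome 5) had signals of 8.44, 7.80, 7.81 and 8.31 in XEOSry and of 8.56, 8.95, 8.69 and 8.16 in XEZ2OSry. Here XEZ2OSry replicates 1 to 3 lay above every XEOSry animal, and XEZ2OSry replicate 4 again lay within the range of the other genotype. The difference was -0.50 (SE 0.203, limma adjusted p = 0.174), with means of 8.09 ± 0.333 and 8.59 ± 0.328 (SD, n = 4 each). The files give 1 value per gene, and the splice forms of Ppp1cc were not analysed here. Ppp1cb, the beta subunit, was detected on 0 arrays of XEOSry and 2 of XEZ2OSry and stayed out of the test, although its signals lay between 8.89 and 9.55.

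To follow the isoforms within an animal, each gene was set relative to its own mean over the 8 animals and Ppp1ca was subtracted from Ppp1cc. The relative difference was 0.025, -0.84, -1.04 and -0.16 in XEOSry and 0.64, 1.33, 0.45 and -0.40 in XEZ2OSry. It differed by -1.01 between the genotypes, and only XEZ2OSry replicate 4 fell below an XEOSry animal. No test was made on this pair, whose members were chosen with their differences known.

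Ppp1r11, known as inhibitor 3 of PP1, had the lowest difference of all detected members. Its signals were 12.52, 11.80, 11.40 and 12.40 in XEOSry and 13.01, 13.33, 12.66 and 12.18 in XEZ2OSry. As with Ppp1cc, XEZ2OSry replicate 4 lay among the XEOSry animals and the other 3 lay above them all. The difference was -0.77, or 1.70-fold lower (SE 0.301, limma adjusted p = 0.167), and Ppp1r11 stood 408th of 8324 genes by size of difference and 1530th by p.

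The glycogen-targeting subunits Ppp1r3c and Ppp1r3f were both higher in XEOSry with no overlap. Ppp1r3c had signals of 9.41, 9.28, 8.96 and 8.88 in XEOSry and of 8.79, 8.61, 8.74 and 8.72 in XEZ2OSry, a difference of 0.42 (SE 0.129, limma adjusted p = 0.126, two-sided exact permutation p = 0.0286, the smallest that 4 against 4 can give). Ppp1r3f, the only X-linked member, had signals of 7.54, 7.86, 7.82 and 7.49 against 7.47, 7.19, 7.38 and 7.45. Its lowest XEOSry animal exceeded the highest XEZ2OSry animal by little, and its difference of 0.30 (SE 0.118, limma adjusted p = 0.164) was under the median of 0.36 over the 285 detected X-linked genes, of which 277 had a positive difference.

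Among other PP1 regulators, Ppp1r9b, the scaffold spinophilin, was lower in XEOSry at 7.04, 7.12, 7.23 and 7.25 against 7.35, 7.38, 7.45 and 7.30, with no overlap and a difference of -0.21 (SE 0.0865, limma adjusted p = 0.184). Its close relative Ppp1r9a, the scaffold neurabin, had the opposite sign at 0.26 (limma adjusted p = 0.344). Ppp1r8, a nuclear inhibitor of PP1, had signals of 9.83, 10.23, 10.01 and 9.89 against 9.67, 9.49, 9.66 and 9.92 and was higher by 0.30 (limma adjusted p = 0.176). The other 7 detected PP1 regulators had differences from -0.088 in Ppp1r14a, a PP1 inhibitor of smooth muscle, to 0.16 in Ppp1r10, a nuclear targeting subunit, and included inhibitor 2 (Ppp1r2) at -0.018. Over the 13 detected PP1 regulators the median was 0.036.

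Ppp2r5e, the epsilon member of the B56 family of PP2A targeting subunits, had the lowest p of all members. Its signals were 9.69, 9.54, 9.71 and 9.76 in XEOSry and 10.07, 10.36, 10.19 and 10.12 in XEZ2OSry. Every XEOSry animal lay below every XEZ2OSry animal, with the highest of the former at 9.76 and the lowest of the latter at 10.07. The means of 9.68 ± 0.0957 and 10.18 ± 0.126 (SD, n = 4 each) gave a difference of -0.51, or 1.42-fold lower (SE 0.0968, limma p = 0.000498, adjusted p = 0.0931, exact permutation p = 0.0286). By p it stood 42nd of 8324 genes. It passed the threshold without XEOSry replicate 4 (adjusted p = 0.0443) or without XEZ2OSry replicate 4 (adjusted p = 0.0396), where 396 and 519 of all genes passed.

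Differences of its family members were smaller. Ppp2r5c differed by -0.026 and Ppp2r5d by 0.12 (limma adjusted p = 0.862 and 0.541). Set relative to their own means as above, Ppp2r5e minus Ppp2r5c differed by -0.48 and Ppp2r5e minus Ppp2r5d by -0.63, both without overlap between the genotypes. These values are a description, since Ppp2r5e was picked for its difference.

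In the PP2A core of catalytic and scaffold subunits, no gene had an unadjusted p under 0.05. Ppp2ca, its alpha catalytic subunit, had signals of 12.13, 12.44, 12.54 and 12.27 in XEOSry and of 12.09, 11.70, 12.20 and 12.43 in XEZ2OSry, a difference of 0.24 (SE 0.160, limma adjusted p = 0.367). Ppp2cb, the other catalytic subunit, differed by 0.069 (SE 0.0779, limma adjusted p = 0.587). The scaffold subunits had opposite signs, Ppp2r1a at 0.36 and Ppp2r1b at -0.21 (limma adjusted p = 0.384 and 0.44). Of the 9 detected PP2A regulators, 1 had an unadjusted p under 0.05 (11.1%, against 24.8% of all genes), 4 differences were positive and 5 negative, and the median was -0.026.

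**Figure D2:**
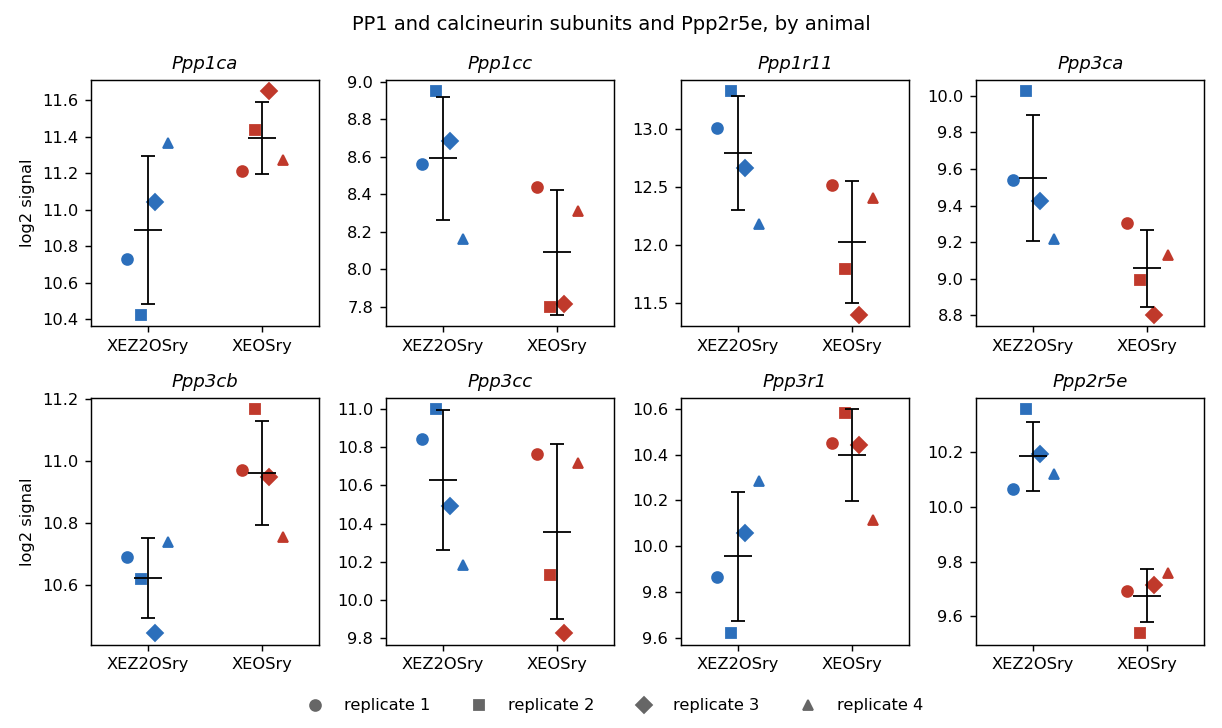
Normalized log2 signal of PP1 subunits (Ppp1ca, Ppp1cc, Ppp1r11), calcineurin subunits (Ppp3ca, Ppp3cb, Ppp3cc, Ppp3r1) and Ppp2r5e in each animal (symbols), with the mean and SD of 4 animals per genotype (lines). Each panel has its own axis, which does not start at 0. XEZ2OSry replicate 4 lies nearest the other genotype in every panel except Ppp2r5e, and the groups are apart in Ppp2r5e and Ppp3cb.

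Calcineurin had its subunits on both sides. Ppp3cb (chromosome 14) had signals of 10.97, 11.17, 10.95 and 10.76 in XEOSry and of 10.69, 10.62, 10.45 and 10.74 in XEZ2OSry. The groups did not overlap, though the replicates 4 of the genotypes came close, at 10.76 and 10.74. The difference was 0.34 (SE 0.112, limma adjusted p = 0.133, exact permutation p = 0.0286). Ppp3r1, its calcium-binding subunit B, was at 10.45, 10.58, 10.44 and 10.11 against 9.86, 9.62, 10.06 and 10.28, a difference of 0.44 (SE 0.158, limma adjusted p = 0.146), and the replicates 4 of both genotypes overlapped.

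Ppp3ca (chromosome 3) had signals of 9.30, 8.99, 8.80 and 9.13 in XEOSry and of 9.54, 10.03, 9.42 and 9.22 in XEZ2OSry, a difference of -0.50 (SE 0.178, limma adjusted p = 0.147). Detection on 2 arrays of each genotype just reached the filter. Within each animal, Ppp3ca minus Ppp3cb, relative to their own means, was -0.18, -0.69, -0.66 and -0.14 in XEOSry and 0.34, 0.90, 0.47 and -0.031 in XEZ2OSry. The genotypes did not overlap in this measure, which differed by -0.83. It is a description, since the pair was chosen with the opposite differences of its members known.

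Ppp3cc, the testis form, had signals of 10.76, 10.13, 9.83 and 10.71 in XEOSry and of 10.84, 10.997, 10.49 and 10.18 in XEZ2OSry. Its groups overlapped widely, and the difference of -0.27 was about the size of its standard error (SE 0.247, limma adjusted p = 0.507). In XEOSry, replicates 2 and 3 were the low ones, as they were for Ppp1cc and Ppp1r11. Of the list of testis isoforms, 3 of 7 genes were found in the table, Ppp1cc and Ppp3cc were detected with a negative difference each, and Ppm1j was detected on no array. Ppp3r2, Ppp1r32, Ppp1r36 and Ppp1r42 were not analysed here.

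None of the remaining catalytic subunits had an unadjusted p under 0.05, though Ppp6c and Ppp5c differed by more than the median size of 0.18 over all genes. Ppp6c was at 11.61, 11.61, 11.20 and 11.09 in XEOSry against 11.23, 11.08, 10.92 and 11.05, a difference of 0.31 (SE 0.141, limma adjusted p = 0.214). Ppp5c, which carries its own regulatory repeats, differed by -0.28 (SE 0.153, limma adjusted p = 0.277), and Ppp4c by -0.0038 (SE 0.100, limma adjusted p = 0.982). The PP4 regulator Ppp4r1 differed by 0.078.

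Of the PPM phosphatases, 3 of 8 were higher at an unadjusted p under 0.05 (37.5%, against 12.9% of all genes) and none was lower (against 12%). Ppm1k, the mitochondrial phosphatase of branched-chain amino acid breakdown, had the highest difference of all members, with signals of 9.32, 9.67, 9.22 and 9.02 in XEOSry and of 8.86, 8.51, 8.69 and 9.07 in XEZ2OSry. Only the replicates 4 overlapped, and the difference was 0.52 (SE 0.164, limma adjusted p = 0.128). Ppm1a, which acts on SMAD proteins, was at 10.40, 10.55, 10.46 and 10.14 against 10.13, 9.82, 10.07 and 10.31 (difference 0.31, SE 0.132, limma adjusted p = 0.192). Ppm1l, a phosphatase of the endoplasmic reticulum membrane, differed by 0.30 (SE 0.123, limma adjusted p = 0.179). Without XEOSry replicate 2, the unadjusted limma p was 0.114 for Ppm1a, 0.0685 for Ppm1l and 0.0279 for Ppm1k. Without XEZ2OSry replicate 2, it was 0.12 for Ppm1a, 0.0988 for Ppm1l and 0.0309 for Ppm1k.

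The other PPM genes ran from -0.38 in Ppm1g, a nuclear form (limma adjusted p = 0.274), to 0.15 in Ppm1e. Ppm1d, which shuts off the DNA damage response, differed by 0.12. The array entry Ppp2cz is by current annotation a synonym of Ppm1j and was counted with the PPM genes. It was detected on 5 arrays at 6.61 to 6.88 and differed by -0.060 (limma adjusted p = 0.673), while the entry named Ppm1j was not detected.

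By class, the median difference was 0.033 in the 10 catalytic PPP subunits (5 positive, 5 negative), 0.14 in the 8 PPM phosphatases (6 positive, 2 negative) and 0.054 in the 24 regulatory subunits (14 positive, 10 negative), against 0.073 in all genes. In size regardless of sign, the median was 0.29 in catalytic subunits, 0.23 in PPM phosphatases and 0.13 in regulatory subunits, against 0.18 in all genes. An unadjusted p under 0.05 was reached by 4 of 10 catalytic subunits (2 in each direction), 3 of 8 PPM phosphatases and 7 of 24 regulatory subunits (4 higher, 3 lower), against 24.8% of all genes in either direction. Differences between the classes were not tested.

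**Figure D3:**
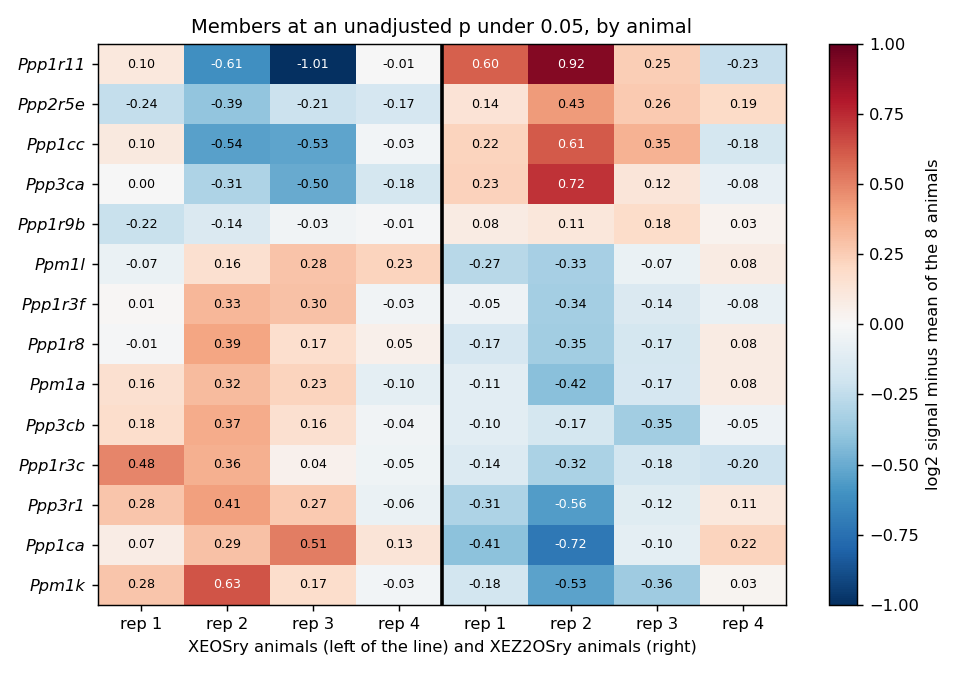
Log2 signal minus the mean of the 8 animals (colour and number) for the 14 members at an unadjusted p under 0.05, with XEOSry animals left of the line and XEZ2OSry animals right. XEZ2OSry replicate 2 is the lowest animal in 8 of the 9 members that were higher in XEOSry and the highest in 4 of the 5 that were lower. The same counts over all genes were not made.

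Some animals recurred at the ends of these distributions. The same counts over all genes were not made, so whether these positions are particular to the phosphatase genes was not tested. In the 9 members that were higher in XEOSry, XEZ2OSry replicate 2 was the lowest of the 8 animals 8 times and XEOSry replicate 2 the highest 6 times. XEOSry replicate 4 was the XEOSry animal nearest the other genotype 6 times, and XEZ2OSry replicate 4 was the nearest of its genotype 7 times. In the 5 members that were lower, XEZ2OSry replicate 2 was the highest 4 times and XEZ2OSry replicate 4 the nearest 4 times, while the lowest animal was XEOSry replicate 2 or 3 in 2 members each and the nearest XEOSry animal was replicate 1 in 3 and replicate 4 in 2. Members at an unadjusted p under 0.05 numbered 14 with all animals, 5 without XEOSry replicate 2 and 5 without XEZ2OSry replicate 2. The share of all genes likewise fell, from 24.8% with all animals to 15.4% and 14.7%.

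The pachytene marker list set the same animals apart. In whole testis, fewer cells of a type and less RNA per cell cannot be told apart. Of 14 detected autosomal pachytene spermatocyte genes, 13 had a negative difference and 10 an unadjusted p under 0.05 (71.4%, against 12% of all genes), with a median of -1.16, and none passed after adjustment. Their mean log2 signal was 10.30, 8.996, 9.17 and 10.59 in XEOSry and 11.17, 11.59, 11.17 and 10.41 in XEZ2OSry. XEOSry replicates 2 and 3 were the lowest, XEZ2OSry replicate 2 was the highest and the replicates 4 overlapped, as for Ppp1cc and Ppp1r11. The pachytene markers Sycp3 and Mybl1 were detected on no array.

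The lists of the other cell types differed less. Differences were positive for all 3 detected spermatogonial genes (list mean 9.18 to 9.86 in XEOSry and 8.60 to 9.65 in XEZ2OSry, median difference 0.44), all 6 Sertoli genes (10.85 to 11.50 and 10.29 to 11.36, 0.23), all 4 peritubular genes (8.59 to 9.49 and 8.18 to 9.27, 0.29) and all 5 macrophage genes (7.88 to 8.34 and 7.61 to 8.20, 0.31), and for 2 of 4 Leydig genes (8.66 to 9.22 and 8.61 to 9.21, -0.036). Among all detected genes, 62% had a positive difference. XEZ2OSry replicate 2, the highest animal of the pachytene list, was the lowest in the spermatogonial, Sertoli, peritubular and macrophage lists. XEOSry replicate 3 was the highest in the spermatogonial, Sertoli and peritubular lists, and XEOSry replicate 1 in the macrophage and Leydig lists. In the Leydig list XEZ2OSry replicate 1 was the lowest. Every one of the list ranges overlapped between the genotypes, and no gene of the lists passed after adjustment. The part of cell composition in the phosphatase differences was not tested.

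**Figure D4:**
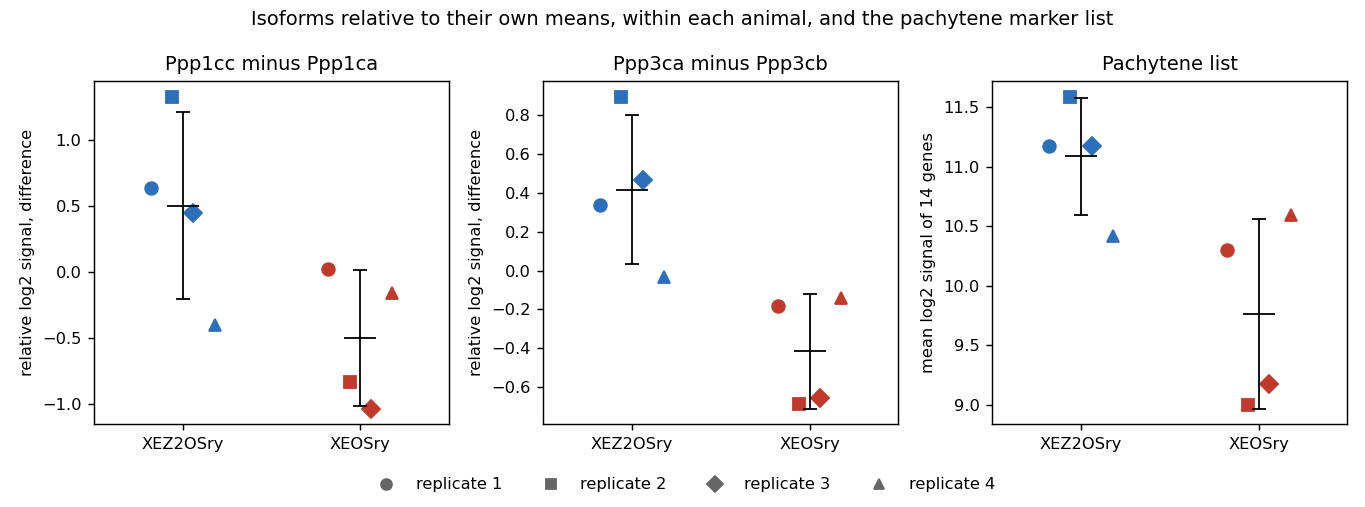
Ppp1cc minus Ppp1ca and Ppp3ca minus Ppp3cb in each animal, each gene set relative to its mean over the 8 animals (log2), and the mean log2 signal of 14 pachytene genes, with the mean and SD of 4 animals per genotype. XEOSry replicates 2 and 3 are the lowest in all 3 panels and XEZ2OSry replicate 2 the highest, and the axes do not start at 0.

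Substrates, inhibitors and binding partners of the phosphatases came from a list of 95 genes, of which 56 were in the table and 31 detected. Other serine and threonine phosphatases were on this list as well, as 12 of the 95 genes and 4 of the 31 detected ones. None of the 31 passed after adjustment, and the median was 0.16, against 0.073 in all genes. A positive difference was found in 24 and a negative one in 7, where the shares of all genes were 62% and 38%. At an unadjusted p under 0.05, 3 were higher (9.68%) and 2 were lower (6.45%), both under the shares of all genes of 12.9% and 12%. The higher ones were Rrp1b, a nucleolar PP1 partner, at 0.33, Ilkap, a phosphatase of the PP2C type, at 0.30 and Nfatc3, a calcineurin substrate, at 0.27 (limma adjusted p = 0.133, 0.171 and 0.177).

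Bad, a cell death protein and phosphatase substrate, was the lowest partner at 9.35, 9.08, 8.83 and 9.21 in XEOSry against 9.89, 10.22, 9.79 and 9.30 in XEZ2OSry. Its groups overlapped only through XEOSry replicate 1 and XEZ2OSry replicate 4, and it differed by -0.68 (SE 0.192, limma adjusted p = 0.121). Igbp1b, a copy of the PP2A-binding protein gene Igbp1, was lower by -0.53 (limma adjusted p = 0.168). By enzyme, positive differences numbered 5 of 7 for calcineurin, 6 of 8 for PP2A, 9 of 11 for PP1, 0 of 1 for PP4 and PP6 and 4 of 4 for the other phosphatases. The share of all detected genes with a positive difference was 62%.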

How the data were processed

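Total RNA from the whole testis of 1 animal was labelled with biotin and hybridized to each single-colour Illumina BeadChip. The labels give 4 animals per genotype, whereas the methods state 3, and all 8 arrays were used. The authors quantile normalized the arrays in BeadStudio, and the submitters' processing notes name GenomeStudio 2011.1. The deposited gene-level values are log2 signals between 5.72 and 15.48, and the floor of 10 foreseen for linear values was not needed. The authors also deposited linear intensities called non-normalized, with array medians of 105.5 to 106.3 and thus already aligned, which served as an alternative, and a detection p-value of each gene on each array from their software.

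Genes with a detection p-value under 0.01 on at least 4 of 8 arrays were kept. Genotype was the sole term of a linear model fitted to each gene by limma 3.58.1 (R 4.3.3, eBayes), p-values were two-sided, and the Benjamini-Hochberg procedure ran over 8324 genes. Exact permutation used the 70 assignments of 8 arrays to 2 groups of 4. The fit was tested on simulated data. Precision is limited by the number of arrays, and each gene rests on its own probes. Levels were therefore not compared between genes, except to describe how the detection call went with the signal. Symbols were matched to RefSeq (GRCm38.p6), 14094 as current names and 3068 as synonyms, while 50 had several matches and 885 none. Alternatives covered background correction, the filter, centring, variance moderation, the series value table, a replicate block and leaving out each animal.

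The members and lists were chosen with earlier results of these data known. Genes are named by rule, as all catalytic PPP and calcineurin subunits, testis isoforms, X-linked members and, up to 8 per direction, other detected members at an unadjusted p under 0.05, with up to 3 partners per direction. Further members, picked with their values known, stand for their class, and the partner Sfi1 is named for the size of its difference. Ppp2cz was placed with the PPM genes after its annotation was seen.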

Additional observations from a re-analysis of the deposited data

How the results depend on the processing

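Across 17 alternative settings, the 21 named members that were tested gave 354 values, of which 349 kept the direction and the side of the threshold. No member passed the threshold in the main fit, so this count says nothing about the unadjusted calls, which shifted as given below. Ppp2r5e moved past the threshold in 2 settings, without XEOSry replicate 4 and without XEZ2OSry replicate 4. Ppp4c, which differed by -0.0038, changed sign without XEOSry replicate 1 (0.043), XEOSry replicate 3 (0.019) or XEZ2OSry replicate 4 (0.035), always within its standard error, and ranged from -0.070 to 0.043 when 1 animal was left out. When 1 animal was left out, members at an unadjusted p under 0.05 ranged from 3 to 10 for higher and from 2 to 7 for lower, and members lower at an adjusted p under 0.05 from 0 to 1. They numbered 5 in all without XEOSry replicate 2 or XEZ2OSry replicate 2, 7 without XEOSry replicate 3 or XEZ2OSry replicate 1 and 9 without XEZ2OSry replicate 3, against 14 with all animals, and rose to 17 without XEOSry replicate 4 and 15 without XEZ2OSry replicate 4. The share of all genes ran from 14.7% to 33.9% in these fits. The median of the regulatory subunits ranged from 0.014, without XEZ2OSry replicate 3, to 0.071, that of the catalytic subunits from 0.0080, without XEOSry replicate 4, to 0.053, without XEOSry replicate 3, and that of the PPM phosphatases from 0.068, without XEZ2OSry replicate 2, to 0.21, without XEZ2OSry replicate 4. With no moderation of the variance, 5 members had an unadjusted p under 0.05 as higher and 3 as lower, against 21.2% of all genes in either direction. The cause of these shifts was not tested. The filter on a mean log2 signal of at least 7, added after the data were seen because the detection p-value does not follow the signal for every gene, gave 15 of 43 members at an unadjusted p under 0.05 (25.7% of all genes) and none after adjustment. The detection filter left 19 of the 61 members untested.

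The paper calls the XEZ2OSry controls matched, but whether the replicate numbers of the labels pair the animals is not given. Same-numbered animals deviated from their genotype means with correlations of 0.43, -0.23, 0.33 and -0.42 over genes. Between animals of other numbers the correlations ran from -0.72 to 0.75, so that these values cannot decide whether animals were matched. With the number as a replicate block, 7 higher and 3 lower members had an unadjusted p under 0.05 (21% of all genes in either direction), none passed after adjustment, and 1 of 8324 genes did.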

Other observations

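Of the 19 phosphatase genes that were not detected, 2 showed no overlap between the genotypes, and they were chosen here after their values were seen. Among all detected genes the share without overlap was 10.9%, and the share among all undetected genes was not computed. Ppm1m had log2 signals of 8.82, 8.82, 8.70 and 8.53 in XEOSry and of 8.42, 8.22, 8.30 and 8.32 in XEZ2OSry, although it counted as detected on a single XEZ2OSry array. Ppp4r1l had signals of 7.03, 6.67, 6.86 and 7.01 in XEOSry and of 7.41, 7.70, 7.07 and 7.23 in XEZ2OSry and was detected on none. Neither was well above background in XEOSry by the authors' detection p-value, so that no fold is given. Ppm1m and Ppp1cb had higher signals than detected members such as Ppp1r1b (6.55 to 6.77), which was detected on all 8 arrays, and the detection call therefore did not follow the signal across genes.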
